A study of Mus musculus with 40 samples.

Results

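The SOX genes encode transcription factors that share a DNA-binding HMG box, and 9 of them, Sox2, Sox4, Sox6, Sox7, Sox9, Sox12, Sox13, Sox15 and Sox21, were followed in mouse bladder urothelial cells. They were chosen by name, as the rows of a deposited gene count table whose Ensembl identifier maps to these symbols, and they are 9 of 53465 gene rows. All 9 passed the filter on low counts. The cells either carry a double knockout (dKO) of the genes Kmt2c and Kmt2d, whose products methylate histone H3 at lysine 4 at enhancers, or are wild type (WT), going by their labels. The cells were grown as organoids, whose medium held EGF, Noggin, R-spondin, the kinase inhibitor Y-27632 and the TGF-beta receptor inhibitor A83-01, and these additions were common to all groups. PolyA RNA was sequenced from 4 groups of 2 libraries: dKO cells under MI-503 (1 µM, 4 days; dKO MI-503), dKO cells in the solvent DMSO over the same time (dKO DMSO), WT cells under the same MI-503 treatment (WT MI-503) and WT cells in DMSO (WT DMSO). The compound MI-503 inhibits the contact between menin and the methyltransferase KMT2A. The labels do not say how the knockout was made, or whether libraries of a group came from separate cultures, lines or animals, so p-values measure only the spread between these libraries, which may be technical.

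SOX proteins bind a short AT-rich core in the minor groove of DNA and bend it. A form of that core reads ACAAT on one strand and ATTGT on the other. They act with partner factors, and members of one subgroup are closely related in sequence and often replace one another. SOX2 (subgroup SOXB1) and SOX9 (SOXE) are known from epithelial progenitor cells, and SOX9 also directs cartilage formation together with SOX5 and SOX6 (SOXD). SOX4 and SOX12 (SOXC) act in embryonic progenitors, SOX7 (SOXF) in endothelium, and SOX15 (SOXG) is the closest relative of the SOXB1 proteins.

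Promoter sequences are shown for Sox2 and Sox21, whose RNA moved in the same direction in each comparison of genotype or treatment, and for Sox15, whose RNA differed most between the genotypes in DMSO among the 9 genes. Each is the 250 bases before the RefSeq start on build GRCm38.p6, 5′ to 3′ on the strand of the gene, and capitals mark ACAAT or ATTGT.
Sox2, chr3:34649745-34649994, plus strand: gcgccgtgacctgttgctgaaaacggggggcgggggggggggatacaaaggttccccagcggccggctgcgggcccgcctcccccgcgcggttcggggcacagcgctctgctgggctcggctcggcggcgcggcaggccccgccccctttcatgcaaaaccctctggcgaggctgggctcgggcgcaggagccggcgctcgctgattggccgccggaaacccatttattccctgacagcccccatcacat
Sox21, chr14:118237031-118237280, minus strand: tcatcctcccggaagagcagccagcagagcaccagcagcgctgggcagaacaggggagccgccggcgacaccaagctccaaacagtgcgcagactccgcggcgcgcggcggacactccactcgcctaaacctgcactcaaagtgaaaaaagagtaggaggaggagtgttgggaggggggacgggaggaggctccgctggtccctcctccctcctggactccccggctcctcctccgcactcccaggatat
Sox15, chr11:69654787-69655036, plus strand: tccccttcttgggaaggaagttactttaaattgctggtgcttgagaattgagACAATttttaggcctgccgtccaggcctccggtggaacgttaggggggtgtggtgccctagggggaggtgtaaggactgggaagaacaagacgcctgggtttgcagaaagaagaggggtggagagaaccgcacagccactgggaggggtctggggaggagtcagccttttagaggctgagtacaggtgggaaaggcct

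RefSeq promoters were at hand for 7 of the 9 genes, 12 promoters in all. The 5 letters, searched as ACAAT and ATTGT and counted for each form alone, so that matches of the forms may share bases, occurred once in the Sox15 promoter and in none of the single promoters of Sox2, Sox4, Sox12, Sox13 and Sox21. They were present in 3 of the 6 promoters of Sox6 and in 27.7% of all 32851 promoters of the same length. CG dinucleotides, which are dense in CpG-island promoters, numbered 27 in the Sox2 promoter and 17 in that of Sox21, against 5 in that of Sox15 and a median of 6 over all promoters. Those of Sox12 and Sox13 held 35 and 31, that of Sox4 held 11, and the 6 of Sox6 held 1 to 10. A match describes the letters in this window and is not a measured binding site. Other forms of the core were not searched, so a promoter with no match may still hold such a form.

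The libraries held 58113705 to 68571176 counts. Levels are read counts per library size in CPM, scaled by the TMM method. Where no read was counted, the limit is 3 counts, which equals 0.0421 to 0.0501 CPM on that scale and covers counting error only. Kmt2c RNA was 26.6 and 29.8 CPM in dKO MI-503, 55.2 and 52.3 in dKO DMSO, 60.3 and 61.6 in WT MI-503 and 110.2 and 111 in WT DMSO libraries, while Kmt2d was higher in the libraries labelled dKO (log2 fold change 0.43 in DMSO, adjusted p = 0.00166). Gene-level counts do not show whether single exons were lost. Both WT DMSO libraries stood apart: 17 chaperone genes of the endoplasmic reticulum (ER) took 4.16% and 4.49% of their scaled counts, against 0.421% to 0.538% in the other 6. The comparisons of dKO with WT in DMSO, of MI-503 with DMSO in WT, and of the MI-503 effects rest on these WT DMSO libraries, and the part of that state in their results was not tested. Of 19 epithelial and urothelial marker genes 18 passed the filter, with a summed level of 14179 to 15763 CPM in dKO MI-503, 14405 to 15856 in dKO DMSO, 12697 to 13306 in WT MI-503 and 9859 to 10677 in WT DMSO. Most of that sum was the basal keratin gene Krt5 (10390 CPM on average in dKO MI-503, 9579 in dKO DMSO, 7470 in WT MI-503 and 3974 in WT DMSO) and Krt19. Of the urothelium-specific genes, Upk1b averaged 100.5 to 140.5 CPM, while Upk1a, Upk2, Upk3a and Upk3b averaged at most 2.50 CPM in any group and Krt20 averaged 6.66 and 10.8 CPM in dKO MI-503 and dKO DMSO, against 0.508 and 0.32 in WT MI-503 and WT DMSO. In bulk RNA, fewer cells of a type and less RNA per cell cannot be told apart.

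Between dKO and WT cells in DMSO, Sox2, Sox15 and Sox21 rose and Sox7 and Sox13 fell, while Sox4, Sox6, Sox9 and Sox12 did not pass (edgeR quasi-likelihood test, two-sided, adjusted by Benjamini-Hochberg over 16921 genes, threshold 0.05). These 5 of 9 calls stand beside 65.4% of all genes called in this comparison, 29.6% higher and 35.8% lower, and 3 of the 9 were called with a change of at least 2-fold, as were 22.6% of all genes. The median log2 fold change of the 9 genes was 0.12, against -0.05 over all genes tested. The median absolute log2 fold change was 0.55 for the SOX genes and 0.52 over all genes, so they were close. With MI-503 in WT cells, Sox7, Sox9 and Sox15 rose, Sox2, Sox4, Sox6 and Sox21 fell, and Sox12 and Sox13 did not pass. That is 7 of 9, where 69.0% of all genes were called, 35.2% higher and 33.7% lower. At least 2-fold changes were called for 5 of the 9 and for 28.4% of all genes, and the median absolute log2 fold change was 1.13 for the SOX genes and 0.63 over all genes.

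With MI-503 in dKO cells, Sox9, Sox13 and Sox15 rose and Sox2, Sox6 and Sox21 fell, 6 of 9 genes where 55.6% of all genes were called, 29.1% higher and 26.5% lower. Only Sox6 among them changed at least 2-fold, where 14.1% of all genes did. The median absolute log2 fold change with MI-503 in dKO was 0.51 for the SOX genes and 0.40 over all genes. Between dKO and WT cells that both had MI-503, all 9 genes were called: Sox2, Sox4, Sox6, Sox12, Sox15 and Sox21 were higher and Sox7, Sox9 and Sox13 lower in dKO, where 55.1% of all genes were called, 26.6% higher and 28.5% lower. Of the 9, 3 were called with at least a 2-fold change, against 17.2% of all genes. The median absolute log2 fold change in this comparison was 0.96 for the SOX genes and 0.35 over all genes. The counts of 6 and 9 calls were unaltered when both WT DMSO libraries were left out of the fit. Neither comparison uses the WT DMSO mean, so this omission could alter only the scaling, the filter and the shared spread. The other comparisons need those libraries and have no value without them. The number of calls in DMSO differed between settings: 9 of 9 SOX genes passed with library size in place of TMM, and 8 with no filter, a stricter filter or only the DMSO libraries in the fit. With library size only, the median of all genes moved by 0.23 in that comparison, by 0.17 for MI-503 in WT and by -0.16 for the difference of the MI-503 effects, and the share of calls that were higher was 61.7% in place of 45.3% in DMSO and 37.2% in place of 52.9% for the difference, where it was 42.7% with no filter.

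**Figure D1:**
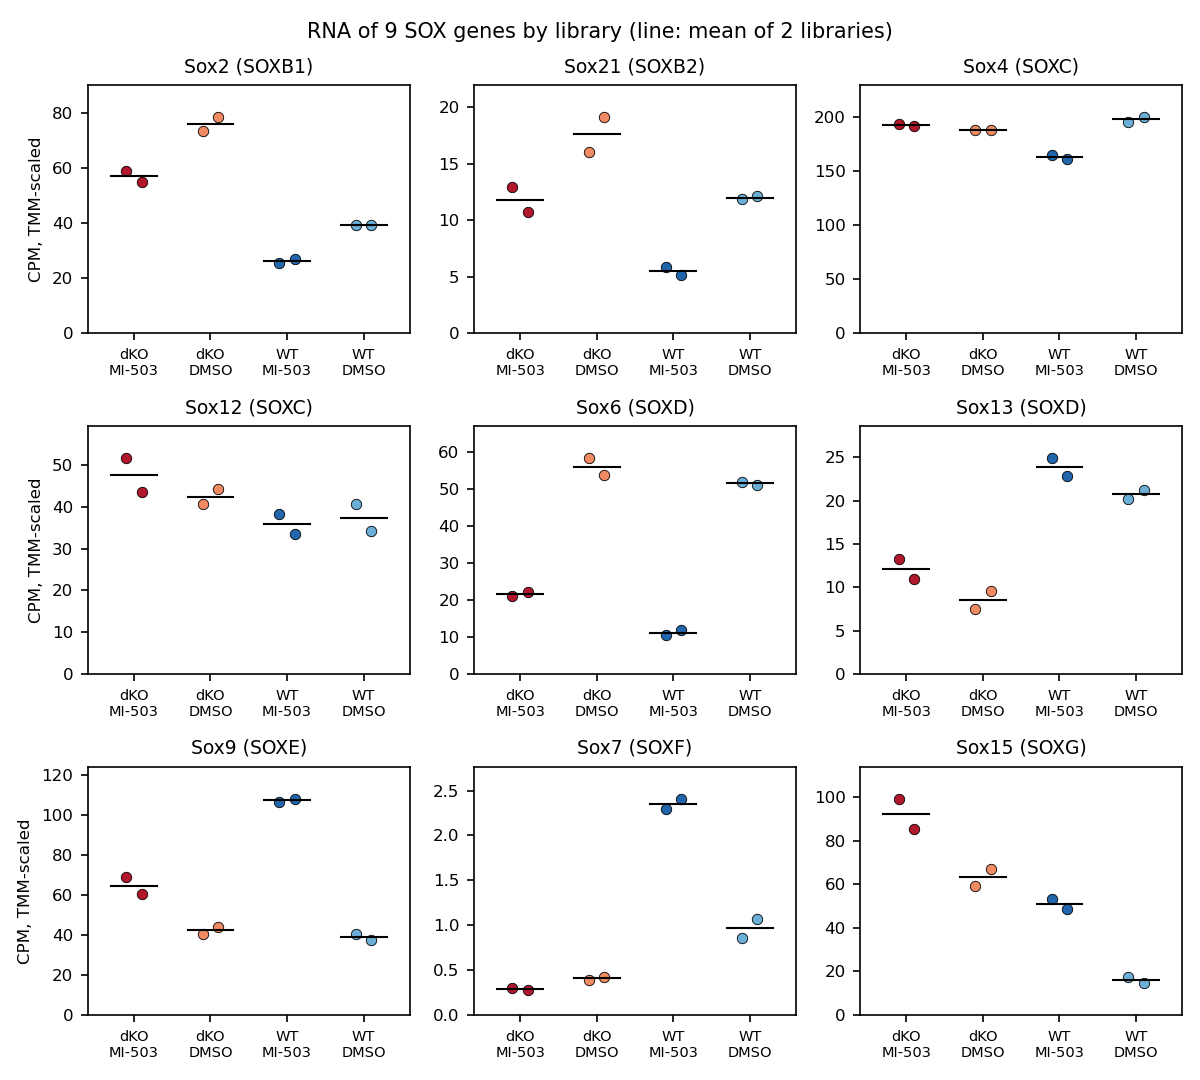
Levels of the 9 SOX genes in each library, in CPM scaled by TMM on linear axes that start at 0; points are the 2 libraries of a group and lines their means. Sox2, Sox15 and Sox21 lie above WT in both dKO groups that share a treatment, Sox7 and Sox13 lie below, and Sox6 is low in the 4 libraries with MI-503.

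**Figure D2:**
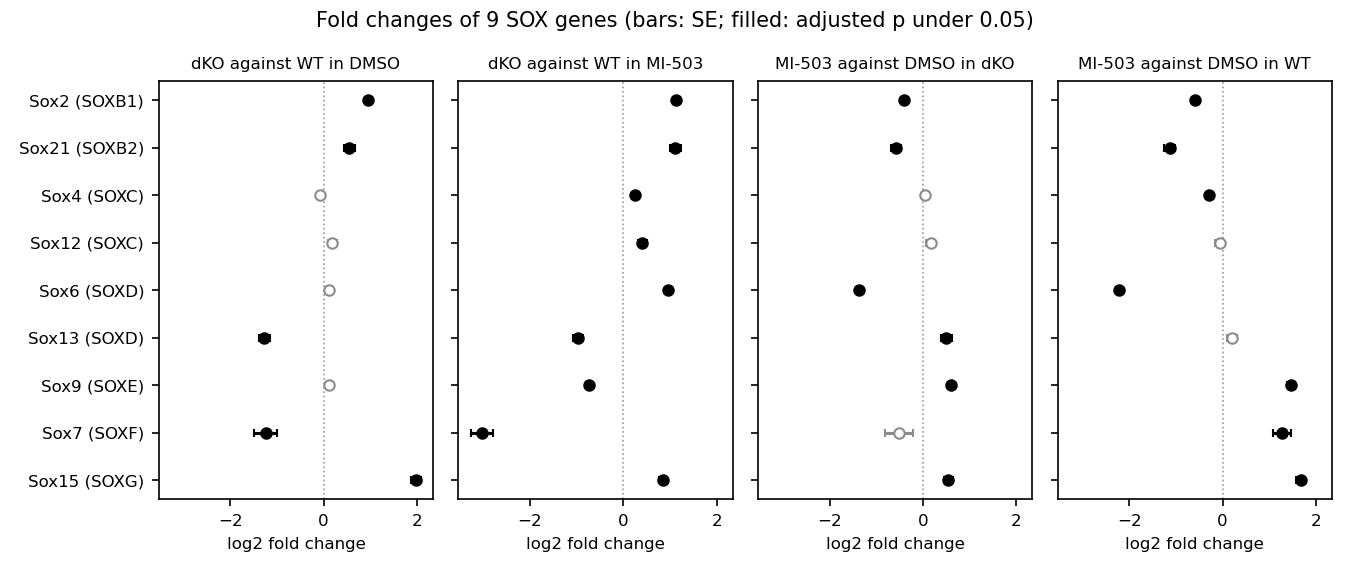
Log2 fold changes of the SOX genes in 4 comparisons, with bars for the standard error and filled points for an adjusted p under 0.05 (edgeR). All 9 points are filled for dKO against WT in MI-503, 5 for dKO against WT in DMSO, 6 for MI-503 in dKO and 7 for MI-503 in WT.

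Sox2 and Sox21, the SOXB genes, were both higher in dKO than in WT cells under either treatment and both lower with MI-503 in either genotype. Sox2 (ENSMUSG00000074637, chromosome 3, 34649995 to 34652461 on GRCm38.p6) encodes the SOXB1 activator of progenitor cells, and Sox21 (ENSMUSG00000061517, chromosome 14, 118233233 to 118237030) encodes a SOXB2 protein known as a repressor. Sox2 had 59.0 and 54.8 CPM in dKO MI-503, 73.2 and 78.5 in dKO DMSO, 25.4 and 26.9 in WT MI-503, and 39.3 and 39.0 in WT DMSO libraries. The 4 groups did not overlap, and both dKO groups lay above both WT groups. The log2 fold change of Sox2 in dKO against WT was 0.95 (SE 0.061, adjusted p = 8.63e-09) in DMSO, and under MI-503 it was 1.12 (SE 0.062, adjusted p = 3.12e-09). With MI-503, Sox2 fell by 0.41 in dKO (SE 0.060, adjusted p = 4.54e-05) and by 0.58 in WT (SE 0.063, adjusted p = 1.45e-06), and the difference of these effects did not pass (0.17, SE 0.087, adjusted p = 0.131).

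Sox21 had 12.9 and 10.7 CPM in dKO MI-503, 16.1 and 19.1 in dKO DMSO, 5.83 and 5.11 in WT MI-503, and 11.9 and 12.1 in WT DMSO libraries. The dKO MI-503 libraries straddled the WT DMSO pair, while dKO DMSO was highest and WT MI-503 lowest. The gene was higher in dKO by a log2 fold change of 0.55 (SE 0.11, adjusted p = 0.000455) in DMSO and of 1.11 under MI-503 (SE 0.12, adjusted p = 2.58e-06). MI-503 lowered it by 0.57 in dKO (adjusted p = 0.000435) and by 1.13 in WT (adjusted p = 1.07e-06). The effect was smaller in dKO by 0.56 (SE 0.16, adjusted p = 0.0113), a difference that did not pass without dKO MI-503 replicate 1 (0.41, adjusted p = 0.0508) or with library size in place of TMM (0.40, adjusted p = 0.063).

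Both SOXB genes consist of a single exon, so their levels can be set side by side per kb of the RefSeq gene. Sox2 averaged 23.1 ± 1.19 CPM per kb in dKO MI-503, 30.7 ± 1.51 in dKO DMSO, 10.6 ± 0.431 in WT MI-503 and 15.9 ± 0.0649 in WT DMSO (SD, n = 2 each). For Sox21 these levels were 3.11 ± 0.412, 4.63 ± 0.576, 1.44 ± 0.134 and 3.16 ± 0.0379 CPM per kb in the same groups. Per kb, Sox2 thus exceeded Sox21 by 6.31 to 8.10 times in the dKO and WT MI-503 libraries and by 5.08 and 4.97 times in the WT DMSO libraries.

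Each SOXB gene overlaps a long noncoding RNA gene, and neither pair passed the test in all the same comparisons. Sox2ot (chromosome 3, 34560381 to 34677993), a noncoding RNA gene that spans Sox2, had 2.08 and 2.01 CPM in dKO MI-503, 2.55 and 2.28 in dKO DMSO, 0.643 and 0.318 in WT MI-503, and 0.309 and 0.314 in WT DMSO libraries. It was higher in dKO by a log2 fold change of 2.95 (SE 0.27, adjusted p = 3.79e-07) in DMSO and of 2.06 under MI-503 (SE 0.25, adjusted p = 1.06e-05). The value under MI-503 was 2.68 without WT MI-503 replicate 1 and 1.67 without WT MI-503 replicate 2. The changes of Sox2ot with MI-503 did not pass in dKO (-0.24, adjusted p = 0.339) or in WT (0.65, adjusted p = 0.115). Counts of Sox2 were 27.3 to 34.3 times those of Sox2ot in dKO libraries and 39.5 to 127 times in WT libraries. Gm4675, a noncoding RNA gene that overlaps Sox21, had 0.681 and 0.787 CPM in dKO MI-503, 1.50 and 1.56 in dKO DMSO, 0.217 and 0.292 in WT MI-503, and 1.11 and 1.37 in WT DMSO libraries. Like Sox21 it fell with MI-503, by 1.06 in dKO (SE 0.22, adjusted p = 0.00102) and by 2.26 in WT (SE 0.28, adjusted p = 4.99e-06), and like Sox21 it was higher in dKO under MI-503 (1.51, SE 0.30, adjusted p = 0.000643). Its difference between the genotypes in DMSO did not pass (0.30, adjusted p = 0.215). No source used here states whether counting was by strand, so reads of overlapping genes cannot be told apart.

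**Figure D3:**
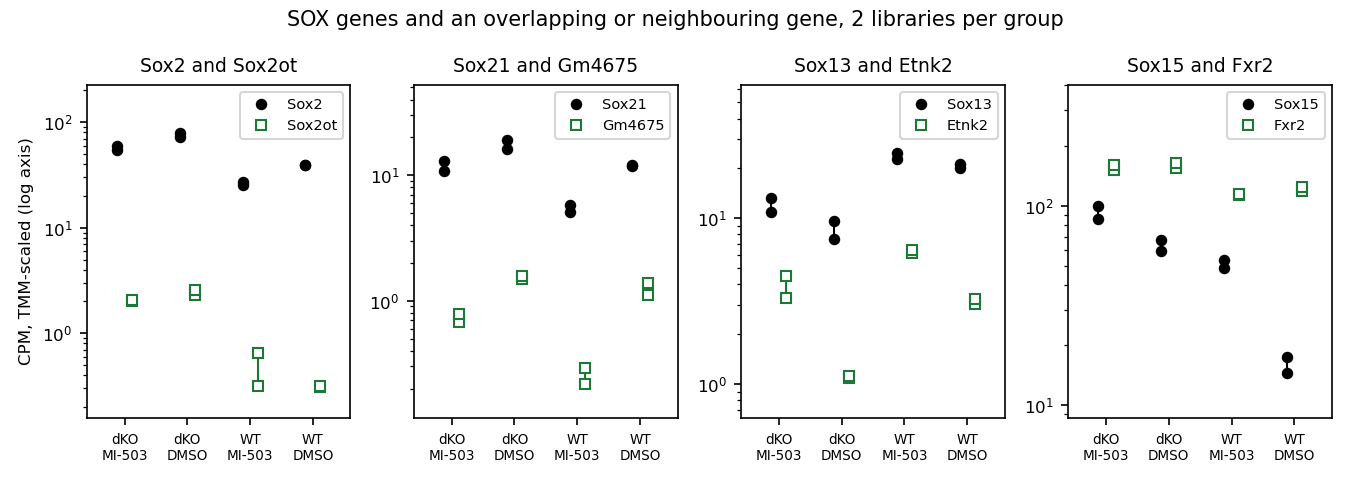
Levels of 4 SOX genes (filled circles) and of a gene that overlaps or adjoins each (open squares), in CPM scaled by TMM on a log axis, with 2 libraries per group. Sox2ot is above 2 CPM in the dKO libraries and below 0.65 CPM in the WT libraries, and Etnk2 is lowest in dKO DMSO, as Sox13 is.

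Sox4 and Sox12, the SOXC genes, had no fold change past 0.41 on the log2 scale in any comparison of 2 groups. Sox4 (ENSMUSG00000076431, chromosome 13, 28948919 to 28953699) encodes a strong activator of progenitor and tumour cells, and Sox12 (ENSMUSG00000051817, chromosome 2, 152393611 to 152398046) a weaker one. Sox4 had 193 and 191 CPM in dKO MI-503, 187 and 188 in dKO DMSO, 164 and 160.5 in WT MI-503, and 195 and 199.6 in WT DMSO libraries. Only the WT MI-503 pair stood off, below the other 6 libraries. Under MI-503, Sox4 fell in WT (-0.28 on the log2 scale, SE 0.042, adjusted p = 3.81e-05), its change in dKO did not pass (0.04, SE 0.042, adjusted p = 0.473), and these effects differed by 0.32 (SE 0.060, adjusted p = 0.000559). Between the genotypes it did not pass in DMSO (-0.08, adjusted p = 0.13) and was higher in dKO in MI-503 (0.25, SE 0.042, adjusted p = 0.000234). The direction in DMSO turned with library size only, no filter or a stricter filter (0.15, 0.018 and 0.0086). With library size only, Sox4 was higher in dKO by 0.15 (adjusted p = 0.00495), which is less than the 0.23 by which the median of all genes moved.

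Sox12 had 51.7 and 43.5 CPM in dKO MI-503, 40.6 and 44.3 in dKO DMSO, 38.3 and 33.4 in WT MI-503, and 40.6 and 34.1 in WT DMSO libraries. Its libraries overlapped between MI-503 and DMSO in both genotypes. Only the comparison of dKO with WT in MI-503 passed (log2 fold change 0.41, SE 0.098, adjusted p = 0.00292). In DMSO the change was 0.18 (SE 0.098, adjusted p = 0.116), and it passed under 6 alternatives: DESeq2 (0.22, adjusted p = 0.0457), library size only (0.41), no filter (0.28), a fit of the DMSO libraries alone (0.26), the stricter filter (0.27), and without WT DMSO replicate 1 (0.32, adjusted p = 0.0255). With MI-503 in dKO it was 0.17 (adjusted p = 0.168), which passed without dKO MI-503 replicate 2 (0.28, adjusted p = 0.0301). Per kb of these single-exon genes, Sox4 averaged 40.2 ± 0.259 CPM in dKO MI-503, 39.2 ± 0.0551 in dKO DMSO, 33.9 ± 0.527 in WT MI-503 and 41.3 ± 0.635 in WT DMSO, against 10.7 ± 1.31, 9.57 ± 0.591, 8.08 ± 0.772 and 8.42 ± 1.03 for Sox12 (SD, n = 2 each). Sox4 had the higher level per kb in every library, by 3.47 to 5.43 times. Zcchc3, which lies 13910 bases from Sox12, was higher in dKO in DMSO (7.29 and 7.37 CPM in dKO, against 2.96 and 3.16 in WT libraries, log2 fold change 1.26, adjusted p = 5.95e-07), a larger change than that of Sox12.

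Sox6 and Sox13 are the SOXD genes, whose products carry a coiled coil and no known activation domain of their own. Sox6 (ENSMUSG00000051910, chromosome 7, 115470872 to 116040776) had the deepest fall of the 9 genes with MI-503. It had 21.2 and 22.1 CPM in dKO MI-503, 58.4 and 53.6 in dKO DMSO, 10.5 and 11.8 in WT MI-503, and 51.9 and 51.1 in WT DMSO libraries. Both MI-503 groups lay far below both DMSO groups, and the DMSO groups lay close together. Sox6 fell by 1.37 on the log2 scale in dKO (SE 0.069, adjusted p = 1.70e-09) and by 2.21 in WT (SE 0.073, adjusted p = 8.95e-12), to 0.386 and 0.215 of the DMSO level. The effect was weaker in dKO by 0.84 (SE 0.0997, adjusted p = 1.18e-05). Between the genotypes Sox6 did not pass in DMSO (0.12, SE 0.066, adjusted p = 0.126) and was higher in dKO in MI-503 (0.96, SE 0.075, adjusted p = 1.01e-07). In DMSO it passed with library size only (0.35), no filter (0.21), a stricter filter (0.21) and only the groups compared (0.20). Sox6os, a noncoding gene inside Sox6, had 0 to 7 counts in each library.

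Sox13 (ENSMUSG00000070643, chromosome 1, 133382300 to 133424459), known in mice from gamma-delta T cells, was lower in dKO than in WT under both treatments. It had 13.3 and 10.9 CPM in dKO MI-503, 7.54 and 9.62 in dKO DMSO, 24.9 and 22.8 in WT MI-503, and 20.3 and 21.2 in WT DMSO libraries. All 4 dKO libraries lay below all 4 WT libraries. In dKO it was lower by 1.27 on the log2 scale in DMSO (SE 0.11, adjusted p = 3.07e-07) and by 0.98 under MI-503 (SE 0.11, adjusted p = 5.12e-06). MI-503 raised it in dKO (0.50, SE 0.12, adjusted p = 0.00245), while the change in WT (0.21, SE 0.11, adjusted p = 0.107) and the difference of the effects (0.29, SE 0.16, adjusted p = 0.154) did not pass. The difference did pass without dKO MI-503 replicate 2 (0.43, adjusted p = 0.0377) or without dKO DMSO replicate 2 (0.48, adjusted p = 0.0203), and the change in WT passed with library size only, no filter, a stricter filter or only the groups compared (0.20 to 0.38). The ratio of Sox13 to Sox6 counts was 0.629 and 0.496 in dKO MI-503, 0.129 and 0.179 in dKO DMSO, 2.38 and 1.94 in WT MI-503 and 0.39 and 0.415 in WT DMSO libraries. Counts are not corrected for transcript length, so the ratio is read between libraries and not between the genes. It was highest in the WT MI-503 libraries and lowest in the dKO DMSO libraries.

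Etnk2, an ethanolamine kinase gene 1982 bases from Sox13, had 3.31 and 4.47 CPM in dKO MI-503, 1.09 and 1.12 in dKO DMSO, 6.17 and 6.42 in WT MI-503, and 3.04 and 3.27 in WT DMSO libraries. Like Sox13 it was lower in dKO, by 1.51 on the log2 scale in DMSO (SE 0.17, adjusted p = 3.34e-06) and by 0.69 under MI-503 (SE 0.14, adjusted p = 0.000746). It rose with MI-503 by more than Sox13 did, with log2 fold changes of 1.81 in dKO (SE 0.17, adjusted p = 6.55e-07) and 0.99 in WT (SE 0.14, adjusted p = 2.41e-05). The difference between Etnk2 and Sox13 was not tested.

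Sox9 (ENSMUSG00000000567, chromosome 11, 112782210 to 112787757), the SOXE gene, rose with MI-503 in both genotypes and more so in WT. It had 68.7 and 60.2 CPM in dKO MI-503, 40.6 and 44.0 in dKO DMSO, 106 and 108 in WT MI-503, and 40.5 and 37.3 in WT DMSO libraries. The DMSO libraries of the genotypes lay next to each other, with the lowest dKO library just above the highest WT library, the dKO MI-503 pair lay above them and the WT MI-503 pair above all. The log2 fold change with MI-503 was 0.61 in dKO (SE 0.070, adjusted p = 5.10e-06) and 1.46 in WT (SE 0.070, adjusted p = 3.22e-10), a difference of -0.85 (SE 0.098, adjusted p = 9.40e-06). In dKO against WT, Sox9 did not pass in DMSO (0.12, SE 0.071, adjusted p = 0.155) and was lower in MI-503 (-0.73, SE 0.068, adjusted p = 7.01e-07). In DMSO it passed with library size only (0.35), no filter (0.21), a stricter filter (0.21) and only the groups compared (0.20). Sox6, whose product works with SOX9 in cartilage, fell in the comparisons in which Sox9 rose.

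Of 11 cartilage matrix genes known as targets of SOX9, SOX5 and SOX6, 5 passed the filter. With MI-503, 1 of the 5 rose in dKO and 4 rose and 1 fell in WT, and 3 were lower in dKO than in WT in MI-503, where 55.6%, 69.0% and 55.1% of all genes were called in these comparisons in turn. These counts rest on low levels. The 5 calls in WT were 2 with a stricter filter and 3 without WT MI-503 replicate 1 or WT DMSO replicate 1, the single call in dKO was 2 without dKO MI-503 replicate 1, and the 3 calls between genotypes were 0 with a stricter filter and 1 with DESeq2, without dKO MI-503 replicate 1 or without WT MI-503 replicate 1. Col2a1, the collagen gene that is the classic SOX9 target, rose to 2.50 and 3.30 CPM in dKO MI-503, against 1.27 and 1.42 in dKO DMSO (log2 fold change 1.11, adjusted p = 8.92e-05), and to 3.29 and 3.39 CPM in WT MI-503, against 0.96 and 1.07 in WT DMSO (1.71, adjusted p = 1.19e-06). These levels are low beside those of Sox9, and Acan, the aggrecan gene, had 8 counts over the dKO MI-503 libraries, 1 over the dKO DMSO libraries, 37 over the WT MI-503 libraries and 1 over the WT DMSO libraries. Among markers of fibroblasts and smooth muscle, of which 6 of 10 passed the filter and Col1a2, Dcn and Lum were at 0 in all libraries, the summed level was 15.3 to 16.0 CPM in dKO MI-503, 4.97 to 5.33 in dKO DMSO, 41.8 to 44.0 in WT MI-503 and 4.49 to 5.59 in WT DMSO. Its order across the groups resembled that of Sox9, and Acta2, an actin gene of smooth muscle, gave most of it in WT MI-503 (40.8 CPM on average), while Pdgfra, a growth factor receptor gene of fibroblasts, gave as much as Acta2 in dKO MI-503 (7.84 and 7.14 CPM). Of 8 immune markers, Cd68 alone passed the filter, Adgre1 and Lyz2 were at 0, and the sum was 61.2 to 69.9 CPM in dKO MI-503, 13.2 in both dKO DMSO libraries, 161 to 166 in WT MI-503 and 16.5 to 18.7 in WT DMSO. Markers of Schwann cells, neural crest and melanocytes, where Sox9 and Sox2 also act, had 5 of 10 genes past the filter, Foxd3 and Tyr at 0, and sums of 54.3 to 54.6 CPM in dKO MI-503, 49.0 to 49.9 in dKO DMSO, 145 to 146 in WT MI-503 and 108 to 110.2 in WT DMSO, nearly all of it from Erbb3 and Mbp. The part of these markers in the Sox9 result was not tested.

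Sox7 (ENSMUSG00000063060, chromosome 14, 63943706 to 63950732), a SOXF gene of endothelium, had the largest difference between the genotypes in MI-503 among the 9 genes, at low levels. It had 0.297 and 0.276 CPM in dKO MI-503, 0.394 and 0.421 in dKO DMSO, 2.30 and 2.41 in WT MI-503, and 0.863 and 1.07 in WT DMSO libraries. The counts behind these levels were 20 and 17 in dKO MI-503, 26 and 30 in dKO DMSO, 157 and 144 in WT MI-503, and 53 and 65 in WT DMSO, and all 4 dKO libraries lay below all 4 WT libraries. In dKO, Sox7 was lower by 1.24 on the log2 scale in DMSO (SE 0.25, adjusted p = 0.00051) and by 3.03 under MI-503 (SE 0.24, adjusted p = 1.14e-07), where it was at 0.123 of the WT level. MI-503 raised it in WT (1.28, SE 0.20, adjusted p = 4.86e-05), its change in dKO did not pass (-0.51, SE 0.30, adjusted p = 0.176), and the effects differed by -1.78 (SE 0.36, adjusted p = 0.00105). Of 10 endothelial markers 2 passed the filter, Emcn and Cldn5 were at 0 in all libraries, and the summed level was 1.50 to 1.59 CPM in dKO MI-503, 0.561 to 0.788 in dKO DMSO, 2.53 to 3.07 in WT MI-503 and 0.612 to 0.7 in WT DMSO. Flt1, a VEGF receptor gene, carried most of it, at 1.32 CPM on average in dKO MI-503, 0.542 in dKO DMSO, 2.39 in WT MI-503 and 0.369 in WT DMSO, while Cdh5, Kdr, Tie1 and Erg averaged at most 0.0385 CPM in any group. Its part in the Sox7 result was not tested. Pinx1, the protein-coding gene before Sox7, was instead higher in dKO under MI-503 (log2 fold change 0.74, adjusted p = 1.38e-06). It had 17.7 and 18.3 CPM in dKO MI-503 against 10.7 and 10.8 in WT MI-503. In DMSO it was also higher in dKO (0.41, adjusted p = 0.00016). With MI-503 it fell in WT (-0.69, adjusted p = 1.41e-06), where Sox7 rose, and in dKO (-0.36, adjusted p = 0.000595), where the Sox7 value was negative too.

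Sox15 (ENSMUSG00000041287, chromosome 11, 69655037 to 69656727), the single SOXG gene, known in mice from placenta and muscle repair, rose both in dKO and with MI-503. It had 99.3 and 85.3 CPM in dKO MI-503, 59.5 and 67.0 in dKO DMSO, 53.3 and 48.8 in WT MI-503, and 17.5 and 14.5 in WT DMSO libraries. The 4 groups did not overlap, and the WT DMSO pair was the lowest by a wide margin. In dKO against WT the log2 fold change was 1.98 (SE 0.098, adjusted p = 6.57e-10) in DMSO and 0.85 under MI-503 (SE 0.091, adjusted p = 2.48e-06). With MI-503 it was 0.55 in dKO (SE 0.090, adjusted p = 0.00014) and 1.67 in WT (SE 0.098, adjusted p = 2.40e-09), and the effects differed by -1.13 (SE 0.13, adjusted p = 1.09e-05). The WT DMSO libraries, which carry the high share of ER chaperone RNA, enter 3 of these 5 comparisons. The comparisons without them, dKO against WT in MI-503 and MI-503 in dKO, gave 0.86 (adjusted p = 2.72e-06) and 0.54 (adjusted p = 0.00012) when both WT DMSO libraries were left out of the fit. That omission could alter only the scaling, the filter and the shared spread in these comparisons.

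Of the genes around Sox15, Fxr2 and Mpdu1 were both higher in dKO in DMSO, as Sox15 was, and neither rose with MI-503. Mir1934, a microRNA gene after Sox15, had 9 to 23 counts per group and did not pass in any comparison. Fxr2, which encodes an RNA-binding protein and lies 1740 bases before Sox15, had 155 and 163 CPM in dKO DMSO, against 119 and 124 in WT DMSO libraries (log2 fold change 0.39, SE 0.049, adjusted p = 8.97e-06). It was also higher in dKO under MI-503 (0.44, SE 0.050, adjusted p = 4.28e-06), and it did not pass with MI-503 in dKO (-0.04, adjusted p = 0.512) or in WT (-0.09, adjusted p = 0.116). Mpdu1, which overlaps the end of Sox15, fell with MI-503, to 28.8 and 29.2 CPM in dKO MI-503, against 48.2 and 49.5 in dKO DMSO (-0.75, SE 0.071, adjusted p = 7.87e-07), and to 28.4 and 33.4 CPM in WT MI-503, against 42.0 and 42.8 in WT DMSO (-0.46, SE 0.071, adjusted p = 5.52e-05). Between the genotypes Mpdu1 was higher in dKO in DMSO (0.20, SE 0.070, adjusted p = 0.0202), a call that ended without dKO DMSO replicate 1, WT DMSO replicate 1 or WT DMSO replicate 2 (0.19 to 0.22), and it did not pass under MI-503 (-0.09, adjusted p = 0.31).

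The MI-503 effects thus differed between dKO and WT for 6 of the 9 genes, Sox4, Sox6, Sox7, Sox9, Sox15 and Sox21, where 46.8% of all genes were called. The difference was positive for Sox4, Sox6 and Sox21 (24.8% of all genes) and negative for Sox7, Sox9 and Sox15 (22.0% of all genes), and it reached 2-fold for Sox7 and Sox15 (12.2% of all genes). For Sox6, Sox9, Sox15 and Sox21 the effect had the same direction in both genotypes and was smaller in dKO, while Sox4 and Sox7 passed in WT and did not pass in dKO. For Sox2, Sox12 and Sox13 the difference did not pass, with values of 0.17 (SE 0.087), 0.23 (SE 0.14) and 0.29 (SE 0.16). Every one of these differences contains the WT DMSO libraries.

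**Figure D4:**
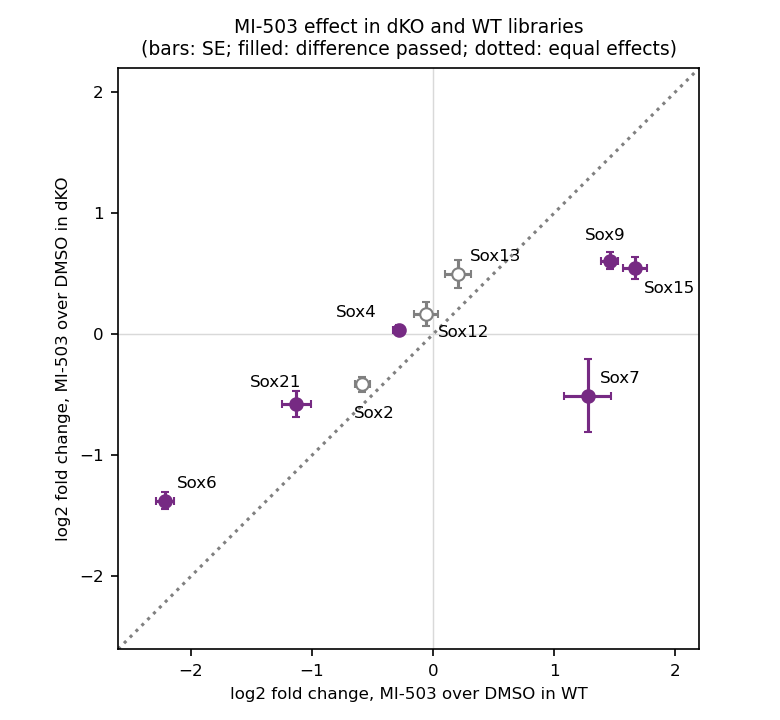
MI-503 effect in dKO cells (vertical axis) against that in WT cells (horizontal axis), as log2 fold changes over DMSO with standard errors; filled points passed the test of the difference, and the dotted line marks equal effects. Sox6 is at -1.37 in dKO and -2.21 in WT, Sox9 at 0.61 and 1.46, Sox15 at 0.55 and 1.67, and Sox7 at -0.51 and 1.28.

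The other 11 SOX family genes were near or at 0. Sox5, the third SOXD gene, alone passed the filter, with 25 and 14 counts in dKO MI-503, 9 and 12 in dKO DMSO, 6 and 5 in WT MI-503, and 3 and 5 in WT DMSO libraries. It was higher in dKO in MI-503 (log2 fold change 1.79, SE 0.51, adjusted p = 0.0093), a call that ended with DESeq2 (adjusted p = 0.0685) and without dKO MI-503 replicate 1 (1.38, adjusted p = 0.139), WT MI-503 replicate 1 (1.82, adjusted p = 0.0621) or WT MI-503 replicate 2 (1.76, adjusted p = 0.0624). Sox11, the third SOXC gene, had 0 to 6 counts in each library, and Sox3, Sox8, Sox14, Sox17 and Sry had 0 in all 8. Sox1, Sox10, Sox18 and Sox30 had at most 2 counts in any library. Of the subgroups of Sox9 and Sox7, the other members were therefore not detectable above the limit that a count of 0 allows.

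Other HMG-box factors of epithelium are the T-cell factors, which act with beta-catenin and the Groucho co-repressors of the Tle genes. Of 11 genes for T-cell factors, beta-catenin and the Tle family, 10 passed the filter. In dKO against WT 5 rose and 2 fell in DMSO, and 5 rose and 3 fell in MI-503, and with MI-503 3 rose and 4 fell in dKO and 5 rose and 5 fell in WT. The shares of all genes called were 65.4% and 55.1% between the genotypes in DMSO and in MI-503, and 55.6% and 69.0% with MI-503 in dKO and in WT. Their median log2 fold change was 0.23 in dKO against WT in DMSO, against -0.05 over all genes. Tcf7l1, a repressor of stem and progenitor cells, was lower in dKO (1.86 and 2.10 CPM in dKO DMSO, against 10.7 and 11.2 in WT DMSO, log2 fold change -2.46, adjusted p = 9.85e-10), and was also lower under MI-503 (-1.19, adjusted p = 1.39e-06). Tle1 and Tle4, which encode co-repressors, fell with MI-503 in dKO (-1.30, adjusted p = 4.72e-09 and -1.18, adjusted p = 7.73e-08) and in WT (-1.49, adjusted p = 4.07e-10 and -1.84, adjusted p = 4.33e-10). Among the other Tle genes, the mean of Tle3 was also lower with MI-503 in both genotypes. The means of Tle2, Tle5 and Tle6 were higher with MI-503 in both.

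Among 15 regulators of stratified and urothelial epithelium, all past the filter, 5 rose and 6 fell in dKO against WT in DMSO, and 6 rose and 7 fell in MI-503. With MI-503, 3 rose and 11 fell in dKO, where the list's median was -0.70 against 0.03 over all genes, and 3 rose and 10 fell in WT, where it was -0.34 against 0.03. Of all genes, 65.4% were called between the genotypes in DMSO, 55.1% in MI-503, 55.6% with MI-503 in dKO and 69.0% with MI-503 in WT. Trp63, the basal-cell regulator, had the directions of Sox2 and Sox21: it was higher in dKO in DMSO (1.14, adjusted p = 4.34e-11) and also under MI-503 (1.27, adjusted p = 2.18e-11) and fell with MI-503 in dKO (-0.83, adjusted p = 2.24e-09) and in WT (-0.96, adjusted p = 1.75e-10). By mean level, Klf5 and Tfap2a of this list moved in the same directions. Klf5 averaged 208 CPM in dKO MI-503, 339 in dKO DMSO, 133 in WT MI-503 and 226 in WT DMSO. Tfap2a averaged 32.5, 61.7, 24.4 and 35.2 CPM in the same groups. Grhl1, a regulator of epithelial junctions, was instead lower in dKO in DMSO (-1.69, adjusted p = 1.08e-10) and fell with MI-503 in dKO (-1.66, adjusted p = 1.05e-09) and in WT (-1.73, adjusted p = 6.15e-11). Under MI-503 its mean was also lower in dKO (5.89 CPM in dKO MI-503, against 18.2 in WT MI-503). Elf3, an epithelial ETS factor, was lower in dKO in MI-503 (-1.24, adjusted p = 3.80e-10). It averaged 62.7 CPM in dKO MI-503, 49.4 in dKO DMSO, 148 in WT MI-503 and 86.2 in WT DMSO. Its mean was thus lower in dKO in DMSO too, and higher with MI-503 in both genotypes.

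Of 5 genes described as SOXC targets, 4 passed the filter, and 3 of them rose in dKO against WT in DMSO, 3 in MI-503, 3 with MI-503 in dKO and 3 with MI-503 in WT, where 29.6%, 26.6%, 29.1% and 35.2% of all genes were called higher. Stmn1, which encodes a microtubule regulator, averaged 65.8 CPM in dKO MI-503, 30.4 in dKO DMSO, 44.1 in WT MI-503 and 13.7 in WT DMSO, and its MI-503 effect was smaller in dKO by 0.57 (adjusted p = 0.000202). Tubb3, a tubulin gene of neurons, averaged 25.9 CPM in dKO MI-503, 7.66 in dKO DMSO, 3.81 in WT MI-503 and 1.07 in WT DMSO. Tead2 averaged 6.18, 1.35, 5.48 and 1.16 CPM in the same groups, higher with MI-503 and close between the genotypes. The 3 genes that rose are therefore not to be read as the same set in each comparison. These changes stand beside the small ones of Sox4 and Sox12. Of 9 neuronal markers 3 passed the filter and Nefl was at 0 in all libraries, with a summed level of 38.3 to 39.4 CPM in dKO MI-503, 48.6 to 50.0 in dKO DMSO, 10.5 to 11.4 in WT MI-503 and 21.9 to 23.3 in WT DMSO. Map2, a microtubule gene, carried nearly all of that sum, at 37.5 CPM on average in dKO MI-503, 48.7 in dKO DMSO, 10.6 in WT MI-503 and 21.9 in WT DMSO, which is the order of Sox2. The other 2 genes past the filter had other orders: Stmn2 averaged 1.23, 0.464, 0 and 0.00814 CPM, and Nefm 0.00811, 0.00701, 0.222 and 0.336 CPM, in the same groups. Their part in the Sox2 result was not tested.

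Among genes with a mean of at least 5 CPM, those most like each SOX gene were named by Pearson's r of log2 CPM over the 8 libraries, which share 4 groups, so r is a description and carries no p. The nearest pair was Ss18 and Irx2 for Sox2 (r = 0.996 each), Trappc5 and Ajuba for Sox21 (0.993 and 0.99), Hipk3 and Sgpp1 for Sox6 (0.998 and 0.997) and Zbtb42 and Kazn for Sox13 (0.991 and 0.99). For Sox9 it was Alad and Dmkn (0.996 and 0.995), for Sox7 Prr15l and Ppl (0.995 and 0.994), for Sox15 Prcc and Smarca4 (0.999 and 0.998), for Sox4 Snhg6 and Wdhd1 (0.988 and 0.985) and for Sox12 Ube2o and Aprt (0.977 and 0.964). Such likeness was common. Of 9689 genes compared, 504 exceeded an r of 0.95 with Sox15, 435 with Sox6 and 286 with Sox9. With Sox12 and Sox4 there were 4 and 44. Pearson's r does not measure the size of a change. Prcc averaged 21.8 CPM in WT DMSO and 38.5 in dKO MI-503, where Sox15 averaged 16.0 and 92.3.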

How the data were processed

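The authors deposited raw read counts, 1 row per Ensembl gene and 1 column for each of 8 polyA RNA-seq libraries, without normalization. STAR, Bowtie2, MACS3, deepTools and SICER, with GRCm38 and mm10, are listed in the submitters' processing notes, which cover all assays of the series. Versions, counting program and annotation release were not found in those notes or in the labels. The other 32 of 40 samples were not analysed here. Of 53465 gene rows, 53274 matched a symbol, and 1 row with no identifier was dropped. RefSeq tables of GRCm38.p6, matched by symbol, gave promoters, positions and neighbours.

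R 4.3.3 and edgeR 4.0.16 were used. Genes were filtered with filterByExpr (minimum count 10, total 15), which left 16921 for testing. TMM factors lay between 0.892 and 1.06. All 8 libraries entered 1 quasi-likelihood fit of 4 group means (4 residual degrees of freedom, biological coefficient of variation 5.14%). Replicates of a group differed beyond sampling noise (chi-square per gene 5.19 to 13.3). Each contrast had a two-sided F test and Benjamini-Hochberg adjustment over all genes tested. SE was taken as the size of the log2 fold change divided by the root of F, with a prior count of 0.125. With 2 libraries on each side, the smallest p of an exact permutation test is 0.33. The fit was tested on simulated counts in which a limited set of genes changed by genotype. The simulation held no MI-503 effect and no shift like that of the WT DMSO libraries, so it does not cover these.

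The SOX genes, gene lists and alternatives were chosen with earlier results of these data known. Named were the 9 SOX genes, their relatives, genes overlapping or next to them, up to 2 genes per list and contrast by smallest adjusted p, and the 2 genes most like each SOX gene. Some further list genes were named by mean level beside these. Alternatives comprised RLE factors, library size in place of TMM, DESeq2 1.42.0, omission of the filter, a stricter one (1 CPM in 2 libraries), fits of the compared groups alone, fits lacking both WT DMSO libraries, a block for the replicate number, and omission of each library in turn.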

Additional observations from a re-analysis of the deposited data

Results flagged for a closer look

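The effect of MI-503 on 6 SOX genes differed between the genotypes in the test of the difference itself (edgeR interaction, adjusted over all genes), and these genes are listed for that reason. The effect in dKO minus that in WT, on the log2 scale, was 0.32 for Sox4, 0.84 for Sox6, -1.78 for Sox7, -0.85 for Sox9, -1.13 for Sox15 and 0.56 for Sox21. The Sox21 difference did not pass with library size in place of TMM (0.40, adjusted p = 0.063) or without dKO MI-503 replicate 1 (0.41). It passed under the remaining alternatives, and the differences of the other genes listed passed under every alternative run. All 6 differences contain the WT DMSO libraries, whose part was not tested, and 46.8% of all genes passed the same test.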

How the results depend on the processing

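Of 45 values (9 SOX genes in 5 comparisons), 36 kept their direction and their side of the threshold under every alternative run, and the exceptions belong to Sox4, Sox6, Sox9, Sox12, Sox13 and Sox21. The number of SOX genes called in dKO against WT in DMSO was 5, but 9 with library size only and 8 with no filter, with a stricter filter or with only the groups compared, and 5 to 6 with each library left out. Sox4 in that comparison was 0.15 with library size only, 0.018 with no filter and 0.0086 with a stricter filter, in place of -0.08. Sox12 with MI-503 in WT was 0.12 with library size only, 0.013 with no filter, 0.015 with a stricter filter, 0.023 without WT MI-503 replicate 2 and 0.073 without WT DMSO replicate 1, in place of -0.06, and -0.18 to 0.073 over all libraries left out in turn. Sox12 with MI-503 in dKO passed without dKO MI-503 replicate 2 (0.28, adjusted p = 0.0301), and Sox13 with MI-503 in WT passed with library size only, no filter, a stricter filter or only the groups compared (0.20 to 0.38). The Sox13 difference of MI-503 effects passed without dKO MI-503 replicate 2 (0.43) and without dKO DMSO replicate 2 (0.48). 1110004F10Rik, the gene 40587 bases after Sox6, was lower in dKO against WT in DMSO (-0.17, adjusted p = 0.00406), but its value was 0.063 with library size only. The cause was not tested. Differences between replicates 1 and 2 correlated weakly between groups over all genes tested (-0.089 to 0.059). The correlations were negative in each pair with dKO DMSO and positive in the other pairs. Counting noise lowers such values, so they cannot decide whether a replicate number marks a shared factor. With the replicate number as a block 5, 7, 6, 6 and 9 SOX genes were called, as without it. The genes called in all were then 10798, 11459, 9115, 7572 and 8971, against 11070, 11669, 9402, 7915 and 9322. The difference of effects needs all groups, so a fit of only the groups compared was not made for it. Sox7 and Sox5 rest on few counts, which limits their precision.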
